A study of Mus musculus with 4 samples.

Results

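The cells described here are 96 wild-type cells sorted as haematopoietic stem cells (HSCs), 48 in each of 2 libraries, out of 188 cells in the 4 libraries of the series. Transcripts of other blood lineages went against that label in some of them, most strongly in cell 10 of replicate 1. In all, 17 cells carried at least 0.5% of their UMIs in a lineage marker list. That limit does not by itself go against the label: cell 1 of replicate 1 passed it with all 6 stem cell markers seen. A barcode counted as a cell where at least 1000 genes were above 0, with ERCC spike-ins and added marker RNAs left out. The study profiled single HSCs from wildtype mice and from mice labelled Mat KO. The Mat KO libraries enter no comparison of expression below. Wild-type cells came from bone marrow, were sorted by flow cytometry as HSCs, kept on ice, picked singly by mouth pipette into lysis buffer, and sequenced with a modified STRT-seq protocol, which counts 3′ tags of polyadenylated RNA by unique molecular identifier (UMI). The labels give no treatment, age, strain, sort gate or number of animals, and nothing says that WT replicates 1 and 2 came from separate animals. Each library is therefore described on its own, no p-value is computed from cells, and a pattern is called shared where both libraries show it.

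HSCs sit at the top of the blood system, where most of them are out of the cell cycle and divide rarely. They are known for a small set of transcription factors, among them Hlf, Mecom and Meis1, and for surface proteins used to sort them, among them the stem cell factor receptor Kit, the endothelial protein C receptor Procr and Sca-1, the product of Ly6a. Handling and sorting of live cells is known to switch on immediate early genes such as Fos and Jun, and the step from rest to division brings DNA replication and mitosis genes, so both programmes are commonly met when single HSCs are compared.

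Depth varied widely from cell to cell. Replicate 1 held 3183279 gene UMIs, from 3759 to 287142 per cell (median 53092.5, a 76.4-fold range), and replicate 2 held 3253608, from 4188 to 223278 per cell (median 51437, a 53.3-fold range). The other 48 barcodes of each library had at most 99 and 81 UMIs. Cells had 1459 to 5646 detected genes in replicate 1 (median 3761) and 1611 to 7281 in replicate 2 (median 4085.5). After thinning each cell at random to 20000 UMIs, which 13 and 11 shallower cells could not reach, the medians were 3105 genes over 35 cells and 3470 over 37 cells. Gene UMIs rose with the ERCC UMIs of the same well (Spearman 0.89 and 0.72), and ERCC RNA does not come from the cell. The ratio of gene to ERCC UMIs still ran from 0.35 to 2.98 in replicate 1 and from 0.0865 to 4.25 in replicate 2. UMIs were over-counted to some extent: an ERCC species seen in at most 20% of wells still had on average 6.65 and 7.37 UMIs in each well where it was seen. The exact 95% intervals given below cover counting error of cells only.

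**Figure D1:**
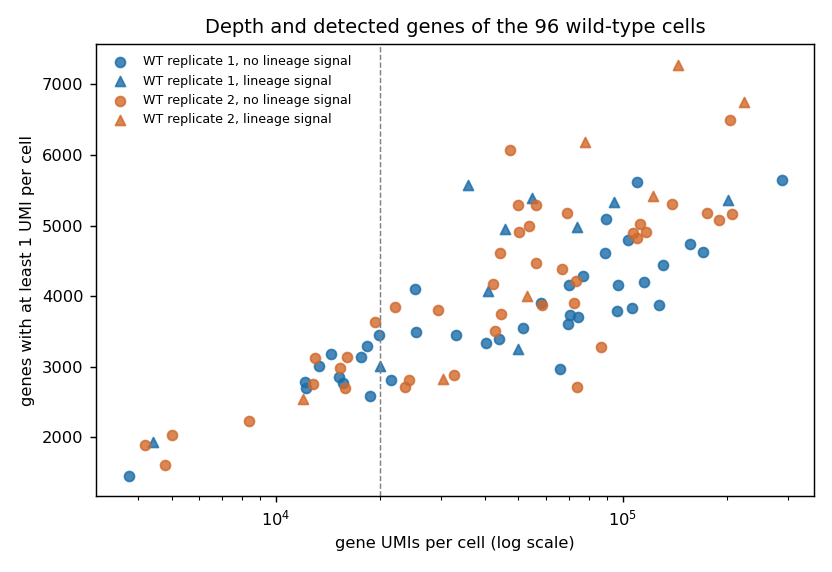
Each point is a wild-type cell, with its gene UMIs on a log axis against the genes detected. The dashed line marks 20000 UMIs; triangles are the 10 and 7 cells in which at least 0.5% of UMIs fell in a lineage marker list. Detected genes rise with depth in both libraries, and the highest number of genes, 7281, belongs to a replicate 2 cell with a lineage signal.

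The libraries use the same barcodes, and high counts of some genes recurred at the same barcode in another library; how they came to recur was not tested. All 48 barcodes of each wild-type library recur in the other, and 44 recur in Mat KO replicate 1. For genes with at least 50% of their UMIs in 1 barcode of Mat KO replicate 1, and at least 200 UMIs there, replicate 2 held a median of 2.88% of that count at the same barcode and 0 at the median other barcode. The same-barcode count was the higher for 24 of 25 genes. For genes led in the same way by 1 barcode of WT replicate 2, WT replicate 1 held a median of 1.33% at that barcode, the higher count for 13 of 14 genes. S100a8, a subunit of the neutrophil protein calprotectin, shows it: Mat KO replicate 1 had 7907 and 7334 UMIs at barcodes 14 and 25, and WT replicate 2 had 1053 and 706 at the same barcodes, behind only its cell 2 with 3089. Setting to 0 every entry that was at least 10 times higher, and at least 50 UMIs, at the same barcode elsewhere removed 1.71% and 1.78% of the entries above 0 and 0.451% and 0.593% of UMIs. The 0.5% lineage signals and the variable genes are given below with and without such entries. Other results use all entries except where stated.

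Some cells carried transcripts of other blood lineages. With a limit of 0.5% of UMIs in the B-lymphoid, granulocyte, monocyte or erythroid marker list, 10 cells of replicate 1 and 7 of replicate 2 had a lineage signal, and they held 19.5% and 20.3% of the UMIs. Such a signal is a range of a score and not a cell type. At limits of 0.25% and 1% the counts were 15 and 4 in replicate 1, and 14 and 5 in replicate 2. Dropping the entries shared by barcode left 10 and 6 cells at 0.5%. Cell 10 of replicate 1 stood furthest from the rest, with 34.3% of its 49793 UMIs in granulocyte genes; S100a8 alone had 6631 UMIs, and the cell held 92.6% of the library's UMIs of Ngp and 92.2% of those of Camp, both secondary granule proteins. In replicate 2, cell 2 had 16.4% and cell 3 had 7.85% of UMIs in granulocyte genes, both with Il1b and Cxcl2 among their leading genes. The signals of 0.808% and 1.38% in cells 14 and 25 of replicate 2 fell to 0.475% and 0.0159% without the shared entries. The granulocyte signals of cells 1, 9, 18 and 23 of replicate 1 lay between 0.536% and 0.612%, within 25% of the limit.

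B-lymphoid genes marked 5 cells of replicate 1 and 2 of replicate 2. Igll1, a surrogate light chain gene of pro-B and pre-B cells, and Vpreb3, another gene of the list, led in cell 3 of replicate 1. They had 183 and 116 UMIs there, and this cell had 12 of 15 list genes and 3.76% of its UMIs in G2/M genes. In replicate 2, cell 14 had 344 Igll1 UMIs and 279 of Dntt, the DNA polymerase that diversifies antigen receptors. Cell 17 of replicate 2 differed from these: Jchain, which joins antibody subunits, made up 9.57% of its UMIs, next to Mzb1 and Tnfrsf17, genes of antibody-secreting cells. An erythroid signal appeared in cells 32 and 35 of replicate 2, with 796 and 541 UMIs of Car1, a carbonic anhydrase of early red cells, and replicate 1 had 11 and 6 Car1 UMIs at those barcodes. Cell 43 of replicate 1 had a monocyte signal of 2.19%, led by Lyz2 and Ly6c2. Of the other lists, the mast cell genes Mcpt8, Ms4a2 and Fcer1a, the T cell genes Cd3e and Cd3g, and the stromal genes Col1a1, Col1a2 and Lepr were at 0 in all 96 cells. Other members of the same lists were seen: Cpa3, a mast cell protease, in 2 and 11 cells, the cytotoxic granule gene Nkg7 in 9 and 21, the T cell kinase Lck in 5 and 8, Cd3d in 2 cells of replicate 2, and Pecam1, which HSCs also express, in 17 and 18. The mast cell list took at most 0.00636% and 0.0317% of a cell's UMIs, the T or NK list 0.0767% and 0.0724%, and the stromal list 0.0330% and 0.0281%. 

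The stem cell markers were present, at uneven levels. No cell lacked all 6 markers: exactly 5 were seen in 22 cells of replicate 1 and 11 of replicate 2, and all 6 in 7 and 13 cells. Hlf, a leucine zipper factor of stem cells, had a UMI in 48 of 48 cells of replicate 1 and 41 of 48 of replicate 2. Its level ran from 19.9 to 1726 CPM in replicate 1 (median 684) and from 0 to 1837 CPM in replicate 2 (median 247). CPM here is a gene's UMIs scaled to 1000000 gene UMIs per cell, with no scaling by length, since each molecule gives a 3′ tag. Hlf also had a UMI in all 5 and both of the cells with a B-lymphoid signal, but at a median of 36.7 and 58.0 CPM, against 784 and 291 in the 38 and 41 cells with no lineage signal. Median depths were 73986 and 138066 UMIs in the B-lymphoid group and 62022 and 49939 in the cells with no signal.

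Kit ran from 0 to 913 CPM in replicate 1 (median 194) and from 0 to 1597 in replicate 2 (median 312), with a UMI in 44 and 47 cells. Meis1, a homeobox cofactor of Hox proteins, ran from 0 to 718 (median 226) and from 0 to 1078 (median 242), with a UMI in 44 and 42 cells. Both genes were thus seen in most cells of either library, and the ranges of the libraries overlapped. Both also had a UMI in most of the 7 cells with a B-lymphoid signal, at medians between 36.7 and 68.0 CPM, so the presence of a UMI did not set the cells apart while the level was lower there.

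Procr, Ly6a and Mecom were sparser. Procr had a UMI in 26 and 23 of 48 cells, from 0 to 761 CPM in replicate 1 (median 15.8) and from 0 to 849 in replicate 2 (median 0). Ly6a had a UMI in 30 of 48 cells of each library, with highest cells at 1387 and 2448 CPM. Mecom, a zinc finger factor needed for long-term HSCs, had a UMI in 25 and 30 cells, with highest cells at 560 and 680. Among cells thinned to 20000 UMIs, Procr was seen in 40% (exact 95% interval 23.9% to 57.9%) and 40.5% (24.8% to 57.9%), Ly6a in 51.4% of both, and Mecom in 37.1% and 51.4%. In the cells with a B-lymphoid signal Procr was seen in 3 of 5 and 1 of 2, Ly6a in 2 of 5 and 2 of 2, and Mecom in 2 of 5 and 1 of 2. The shares of these genes in all cells do not stand clear of that level and are not read here as shares of expressing cells.

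**Figure D2:**
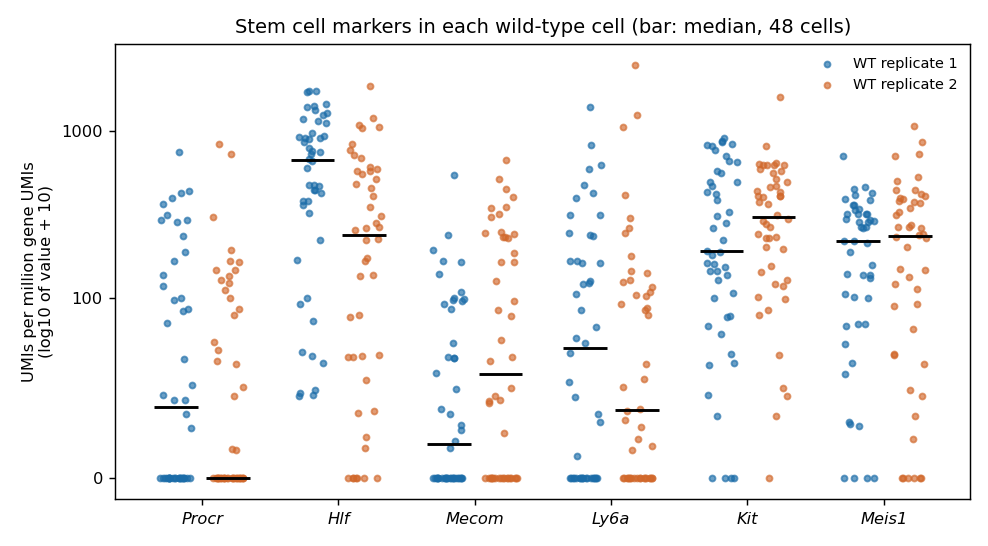
Points are the 48 cells of each library, with CPM on a log10 axis after adding 10, and black bars are medians. Hlf, Kit and Meis1 have medians above 0 in both libraries (684 and 247 for Hlf), while many cells are at 0 for Procr, Mecom and Ly6a.

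Other genes of stem and early progenitor cells ranged from nearly universal to rare. Lmo2, a bridging factor of the stem cell transcription complex, was seen in 47 and 48 cells, at medians of 525 and 403 CPM. Angpt1, which encodes a ligand of the Tie2 receptor, was seen in 46 and 45 cells (medians 623 and 542), and Myct1, an endothelial and stem cell gene, in 46 and 44 cells (medians 362 and 253). Gata2, a zinc finger factor of stem cells, was seen in 43 and 39 cells. At the rare end, Fgd5 was seen in 13 and 14 cells, Slamf1 (CD150) in 6 and 10, Hoxb5 in 3 and 2, and Thy1 in 1 and 4. Cd48, absent from the surface of the most primitive HSCs, was seen in 9 and 14 cells, and cell 42 of replicate 1, with a B-lymphoid signal, held 73.0% of its UMIs in that library. Transcripts of Cd34 were seen in 29 and 31 cells and of Flt3, a receptor of multipotent progenitors, in 14 and 11.

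The most abundant transcripts belonged to the protein synthesis machinery. Rn45s, the ribosomal RNA precursor, took 1.55% to 14.4% of a cell's UMIs in replicate 1 (median 5.44%) and 1.75% to 15.1% in replicate 2 (median 6.61%). Counts under this symbol come from tags of polyadenylated RNA and are not read here as the amount of the precursor. Malat1, a nuclear noncoding RNA, took 0.193% to 4.78% (median 2.18%) and 0.316% to 4.96% (median 1.56%). Among the next were Rps29 with medians of 0.568% and 0.513%, Rpl41, Rpl13, Rps28 and Rps24, the MHC class I light chain B2m with 0.478% and 0.454%, the elongation factor Eef1a1 with 0.442% and 0.463%, Rplp1 and Rps19. The 10 highest genes held 10.4% and 10.5% of all UMIs, the 100 highest 33.1% and 32.9%, and 409 and 417 genes held 50%. Summed profiles of both libraries correlated across 13484 genes (Pearson 0.88 on log2 values, Spearman 0.89), a description over genes, which are not replicates. The share of Rn45s fell with depth (Spearman -0.72 and -0.77 over 48 cells each): its median was 8.00% and 9.76% in cells under 20000 UMIs and 4.79% and 5.33% in deeper cells. Its UMIs ranged 24.8-fold and 26.5-fold between cells, against 76.4-fold and 53.3-fold for all genes.

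Variation between cells was measured on the thinned cells. For each gene with a mean of at least 2 UMIs in both libraries, the squared coefficient of variation (CV2, the variance over the squared mean) was set against the running median of the 100 genes nearest in mean, and its log2 ratio is called the excess. Of the 12352 and 12662 genes detected, 1464 reached that mean in both libraries. Genes with at least 2 times the running median numbered 92 in replicate 1 (6.28%) and 117 in replicate 2 (7.99%). Both libraries shared 41 of these (2.80% of the genes measured), which is 44.6% of the first list and 35.0% of the second. The excess correlated across genes with a Spearman coefficient of 0.39; the libraries share barcodes, protocol and base composition of the genes. Without the 17 cells with a lineage signal 21 of the 41 remained called, without each gene's leading cell 24, under both 16, and without the entries shared by barcode 37. The 4 genes lost without the shared entries were Cd52, Alox5ap, Arrdc3 and Rgs1. The random draw of the thinning also matters: another seed called 46 genes, 35 of them among the 41.

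**Figure D3:**
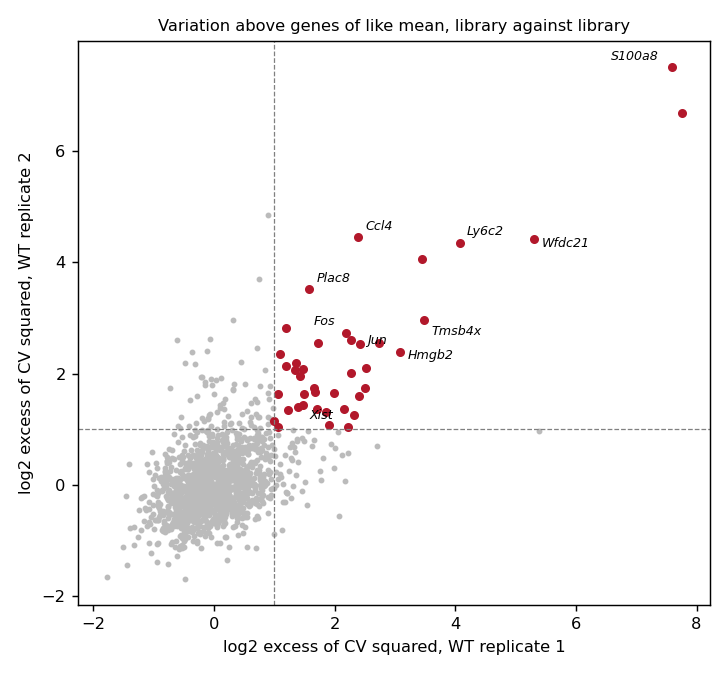
Each point is a gene of the 1464 measured, with the log2 excess of CV2 in replicate 1 against replicate 2; dashed lines mark 2 times the running median and red points the 41 genes beyond it in both libraries. S100a8 lies furthest out, at 7.59 and 7.51, and the grey points scatter around 0.

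The largest excess belonged to granulocyte and monocyte genes that rested on few cells. S100a8 had 1 to 2714 UMIs per thinned cell in replicate 1 (median 6) and 0 to 2028 in replicate 2 (median 4). Cell 10 held 88.0% of the thinned UMIs in replicate 1 and cell 2 held 83.5% in replicate 2, and the next cell had 58 and 100 UMIs. S100a9, the partner subunit, had 0 to 1922 (median 2) and 0 to 866 (median 2), with excesses of 7.75 and 6.69. Both were still called without their leading cell but not without the lineage-signal cells. Wfdc21, Ly6c2 and Tyrobp, all with a median of 0 in both libraries, reached the minimum mean only through a few cells: Wfdc21 had 96.4% and 85.3% of its UMIs in its leading cell. None of these 3 was called without lineage-signal cells, nor without its leading cell. Tmsb4x, which binds actin monomers, had 10 to 294 UMIs (median 26) and 1 to 285 (median 33), highest in the same cells 10 and 2 that led for S100a8. Ccl4, a chemokine, was called without lineage-signal cells but not without its leading cell, which held 30.3% and 78.6% of its UMIs. Cd52 and Plac8, genes of lymphoid and multipotent progenitors, were called in neither setting. Crip1, a small LIM protein, had excesses of 2.28 and 2.02 and was not called without lineage-signal cells, while Alox5ap, of leukotriene synthesis, was called there but not without its leading cell.

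A second group was called both without the lineage-signal cells and without each gene's leading cell. It held 16 genes: the immediate early genes Fos, Jun, Fosl2, Dusp1 and Nr4a2; the division genes Top2a, Mki67, Hmgb2, Hist1h2ae and Tubb5; and Ifitm1, Rgs2, Hes1, Ctla2a, Cdkn1a and Xist. Fos, a subunit of the AP-1 transcription factor, had 1 to 333 UMIs per thinned cell in replicate 1 (median 89) and 1 to 270 in replicate 2 (median 52). The middle 50% of cells spanned 37 to 124 and 14 to 112, so the spread ran through most cells, and no cell of replicate 1 held more than 10.3% of the UMIs. Others of the 16 were seen in fewer cells: Hist1h2ae, a histone gene, was at 0 in 22 of 35 and 16 of 37 thinned cells, Mki67 in 17 and 12, and Xist in 16 and 14. Jun, the partner of Fos in AP-1, had 1 to 157 (median 28) and 0 to 143 (median 20), with excesses of 2.42 and 2.53. Ifitm1, an interferon-induced membrane protein, had 0 to 114 (median 27) and 0 to 154 (median 10). Its excesses were 2.28 and 2.61. Rgs2, a regulator of G protein signalling, had 0 to 86 (median 21) and 0 to 167 (median 16), and Hes1, a target of Notch, had 0 to 133 (median 12) and 0 to 104 (median 21).

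Of the immediate early list, 8 of 23 measured genes were called in both libraries (Fos, Fosb, Fosl2, Jun, Dusp1, Klf2, Klf6 and Nr4a2), where 2.80% of all measured genes were; the list's median excess was 0.71 and 1.00. Without lineage-signal cells 5 of the 8 were still called, and Fosb, Klf2 and Klf6 were not; Fosb and Klf2 were also lost without their leading cell. Nr4a1, an orphan nuclear receptor, is not among them: its excess was 0.89 and 1.65. Of the G2/M list, 4 of 15 were called (Hmgb2, Nusap1, Top2a and Mki67), with median excesses of 0.81 and 0.48. Top2a, the topoisomerase that untangles replicated chromosomes, had 0 to 75 UMIs (median 1) and 0 to 65 (median 3), and Mki67 0 to 38 (median 1) and 0 to 41 (median 2). Most cells were at or near 0 for both genes. Hmgb2, a chromatin protein, had 0 to 135 (median 13) and 2 to 120 (median 15). Nusap1, a spindle protein, was called neither without lineage-signal cells nor without its leading cell.

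The promoters of Fos, Dusp1 and Top2a are shown as examples that hold the marked motifs. Fos and Dusp1 come from the variable immediate early genes and Top2a from the variable mitosis genes, groups known for recurrent short promoter motifs. Each run is the 250 bases before the gene's start in RefSeq, build GRCm38.p6, 5′ to 3′ on the gene's strand. Capitals mark TGACG or its complement in Fos and Dusp1, the core of the cAMP response element (the full element, TGACGTCA, contains it), and CCAAT or its complement in Top2a.
Fos, chr12:85473640-85473889, plus strand: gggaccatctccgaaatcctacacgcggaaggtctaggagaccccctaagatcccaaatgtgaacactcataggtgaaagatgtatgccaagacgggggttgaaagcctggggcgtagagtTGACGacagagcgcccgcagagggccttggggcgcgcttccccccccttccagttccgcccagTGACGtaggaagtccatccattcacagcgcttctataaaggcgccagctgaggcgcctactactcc
Dusp1, chr17:26508473-26508722, minus strand: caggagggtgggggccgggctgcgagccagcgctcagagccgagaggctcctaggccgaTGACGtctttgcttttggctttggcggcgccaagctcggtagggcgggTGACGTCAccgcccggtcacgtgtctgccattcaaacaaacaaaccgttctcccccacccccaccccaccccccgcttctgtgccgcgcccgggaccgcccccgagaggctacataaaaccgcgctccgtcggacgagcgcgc
Top2a, chr11:99024190-99024439, minus strand: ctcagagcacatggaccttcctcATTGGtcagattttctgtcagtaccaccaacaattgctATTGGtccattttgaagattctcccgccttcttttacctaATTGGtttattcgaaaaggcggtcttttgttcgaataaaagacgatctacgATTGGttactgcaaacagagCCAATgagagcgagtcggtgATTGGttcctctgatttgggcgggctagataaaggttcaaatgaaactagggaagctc

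Fos held 2 copies of TGACG and Dusp1 3, of which 2 overlap on opposite strands within the full TGACGTCA, and Top2a held 6 of CCAAT. All 8 variable immediate early genes were matched by symbol, and 5 held TGACG on either strand (Fos, Fosb, Dusp1, Klf2 and Nr4a2), as did 19.8% of 27025 genes with a promoter in the table and 37.2% of the 1138 matched genes measured for variation. CCAAT stood in 3 of 4 variable G2/M genes (Hmgb2, Top2a and Mki67) and in 77.6% of the 49 matched G2/M list genes, against 37.5% of all genes and 40.9% of those measured. Jun, Fosl2 and Klf6 held no TGACG. The full TGACGTCA stood in 1 of the 8 (Dusp1), in 1.77% of all genes and in 3.78% of those measured. The AP-1 motif TGACTCA stood in none of the 8 immediate early genes and in 5.16% of all genes. The GC box GGGCGG stood in all 8 immediate early genes and 3 of the 4 G2/M genes, against 35.4% of all genes and 66.3% of those measured. All 5 motifs were searched on both strands, and TGACG lies within TGACGTCA, so those matches overlap. A gene counted where any of its starts held the motif. These matches describe the letters in the window and not sites in use.

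Genes with the lowest excess and whole groups without a variable member mark the even part of the transcriptome. None of 77 measured cytosolic ribosomal protein genes was called, nor any of 66 respiratory chain, 25 translation factor, 24 proteasome or 11 HSC transcription factor genes; median excesses were -0.35 and -0.33 for the ribosomal and 0.12 and 0.18 for the transcription factor genes. Hlf had excesses of 0.73 and 0.80, below the limit of 1 in both. Rps29 had 30 to 147 UMIs per thinned cell (median 114) and 21 to 160 (median 103). H3f3a, which encodes the replication-independent histone H3.3, had 2 to 23 (median 10) and 0 to 23 (median 11), and Myl6, a myosin light chain, 3 to 26 (median 12) and 2 to 23 (median 11). Rpl15 and the vesicle coat regulator Arf1 were also among the 10 lowest, with C330021F23Rik, Gm5148 and Gm1821. Counts under the symbols Mir703 and Mir682, the remaining 2, come from polyadenylated tags and do not measure mature microRNAs.

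**Figure D4:**
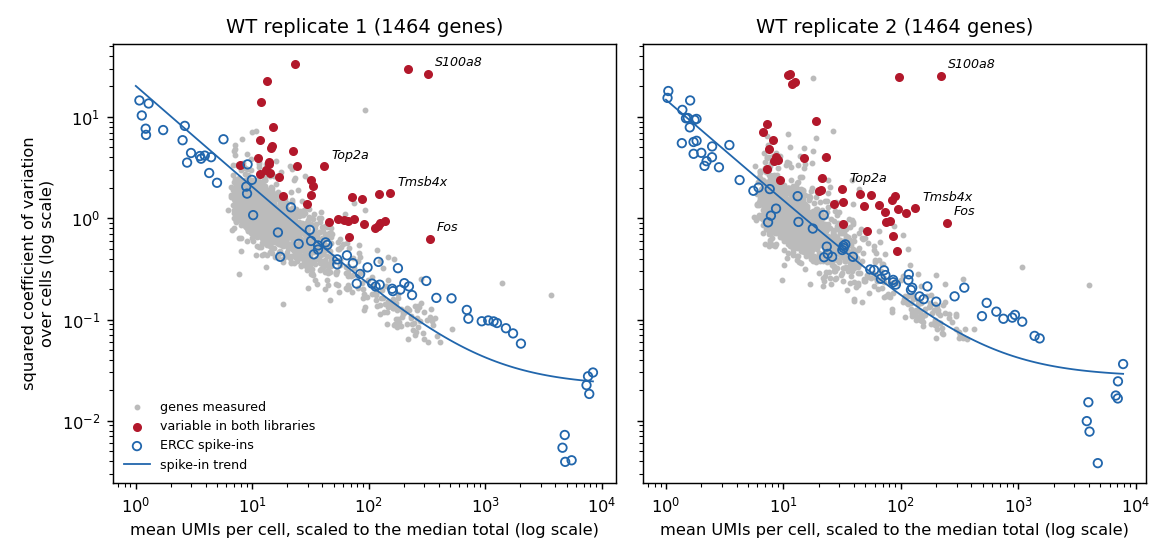
CV2 over cells against mean UMIs per cell, both on log axes, for the 1464 genes (grey; red for the 41 variable in both libraries) and the ERCC spike-ins (blue circles) with their fitted trend, each scaled to the median total of the thinned cells before thinning. Most genes lie along or below the spike-in trend, and S100a8, Fos, Top2a and Tmsb4x lie above it.

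Spike-ins, which differ between wells only through handling and counting, were used as a reference for technical spread. At a mean of 3 to 10 UMIs the median CV2 of genes was 2.49 and 2.04, and that of the ERCC species 3.40 and 1.90. At 10 to 30 UMIs genes had 1.02 and 0.837 against 0.724 and 0.657, and at 30 to 100 UMIs 0.491 and 0.429 against 0.435 and 0.308. At 1 to 3 and at 100 to 1000 UMIs genes had the lower median in both libraries. The median gene had 0.741 and 0.816 times the CV2 of the ERCC trend at its mean, and 65 (4.44%) and 100 (6.83%) genes had at least 2 times that trend. Of the 41 variable genes, 34 and 38 did, at a median of 3.59 and 4.07 times. These genes were picked for a high CV2 in the same cells, so their place above the trend is no separate evidence of variation. Fos had 7.61 and 10.3 times the trend, Jun 5.65 and 7.02, Ifitm1 4.90 and 8.73, and Top2a 6.45 and 3.91. Neurl3, an E3 ligase gene, was the lowest of the 41 in replicate 2 at 1.46 times.

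Gene programmes differed in how far cells spread. Immediate early genes took 0.173% to 4.52% of a cell's UMIs in replicate 1 (median 2.03%) and 0.110% to 3.45% in replicate 2 (median 1.82%). The cell at the 90th percentile had 5.83 and 4.69 times the share of that at the 10th. The lowest cells, cell 4 of replicate 1 and cell 32 of replicate 2, both carry a lineage signal. Genes of long-term HSCs took 0.0700% to 3.96% (median 1.03%) and 0.0780% to 1.75% (median 0.915%), with ratios of 7.57 and 5.08. In replicate 1 the lowest cell was again cell 4, and the 10th percentile, 0.218%, lay between lineage-signal cells 10 and 18. The lowest cell of replicate 2 carried no lineage signal. Among cells with no lineage signal the medians were 1.10% and 0.992%, and the ratios were not computed for them. The highest value of replicate 1 came from cell 34, which had 3759 UMIs, and in which Nr4a1 stood at 32721 CPM; among thinned cells, which leave it out, the highest shares were 1.84% and 1.64%. Nr4a1 and Egr1, which belong to both lists, are among its highest members, with Ifitm1 and Ifitm3. The HSC transcription factor list was narrower in replicate 1 (0.131% to 0.687%, median 0.492%) and ran from 0.0622% to 0.741% in replicate 2 (median 0.378%). Cytosolic ribosomal proteins took a median of 21.1% and 20.9%, with ratios of only 1.52 and 1.40 between the same percentiles, although the lowest cells had 3.64% and 4.62%. The value of 3.64% was that of cell 10 of replicate 1, which has a granulocyte signal. The respiratory chain had a ratio of 1.81 and the proteasome of 1.94 in both libraries.

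Interferon response genes took 0.0907% to 0.960% (median 0.432%) and 0.0974% to 1.59% (median 0.394%), led by Ifitm1, Ifitm3 and Ly6e. MHC class I genes took medians of 0.769% and 0.782%, led by B2m, H2-K1 and H2-D1. MHC class II genes were near 0 in most cells, with medians of 0.0129% and 0.0173%, and the highest replicate 2 value, 0.397%, was in the Jchain-rich cell 17. Among D cyclins and inhibitors of cyclin-dependent kinases, Ccnd2 led with medians of 717 and 700 CPM. Cdkn1a, which encodes p21, was variable in both libraries, at 0 to 2030 CPM (median 205) and 0 to 2359 (median 361), and Cdkn2a and Cdkn2b were at 0 in every cell. Heat shock and chaperone genes took medians of 0.960% and 1.11%, led by Hsp90ab1, and reached 3.41% in cell 17 of replicate 2.

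A minority of cells was high in mitosis genes. The G2/M list took 0.0433% to 3.76% of UMIs in replicate 1 (median 0.272%) and 0.130% to 3.14% in replicate 2 (median 0.328%). With a limit of 1%, set after the values were seen, 9 of 48 cells of replicate 1 were above it (18.8%, exact 95% interval 8.95% to 32.6%) and 11 of 48 of replicate 2 (22.9%, 12.03% to 37.3%), with 2 and 3 cells within 25% of the limit. Of these, 6 and 4 had a lineage signal; among the cells without one, 3 of 38 (7.89%) and 7 of 41 (17.1%) were above 1%. For the S phase list, at a limit of 0.5% also set after seeing the values, the counts were 5 (10.4%, 3.47% to 22.7%) and 17 (35.4%, 22.2% to 50.5%). In each library 5 cells lay within 25% of that limit, and 2 and 4 of the cells above it had a lineage signal. The S phase counts of the libraries lay further apart than the G2/M counts, although their intervals overlap slightly. The replication ligase Lig1 had medians of 44.5 and 146 CPM and Mcm6, a subunit of the replicative helicase, 40.7 and 122. In thinned cells the median S phase share was 0.185% and 0.280%.

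Cells above 1% in G2/M genes also differed in the rest of their transcriptome. Their median ratio of gene to ERCC UMIs, a measure of RNA per well, was 1.66 against 0.830 in the other cells of replicate 1, and 1.89 against 0.937 in replicate 2. Hlf was at a median of 40.5 against 769 CPM in replicate 1 and 40.3 against 317 in replicate 2. The 40.5 and 40.3 CPM were the values of cell 3 of replicate 1 and cell 14 of replicate 2, both with a B-lymphoid signal. The long-term HSC list took 0.580% against 1.11% and 0.661% against 0.992%, and nuclear long noncoding RNAs, led by Malat1, 1.16% against 2.51% and 1.40% against 1.85%. Interferon response genes took 0.245% against 0.535% and 0.263% against 0.440%. Respiratory chain genes were the higher in these cells, at 2.79% against 1.98% and 2.79% against 1.9996%, as were proteasome genes at 0.797% against 0.559% and 0.757% against 0.546%. In replicate 1 the long-term HSC, respiratory chain and proteasome medians above the limit were also those of lineage-signal cells (43, 28 and 3). Those of nuclear long noncoding RNAs and of the gene to ERCC ratio were of cell 13, which has no lineage signal. All these values describe cells grouped by their own transcripts. Of the 20 cells above the limit, 10 carry a lineage signal, and the part of that signal in each difference was not tested.

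**Figure D5:**
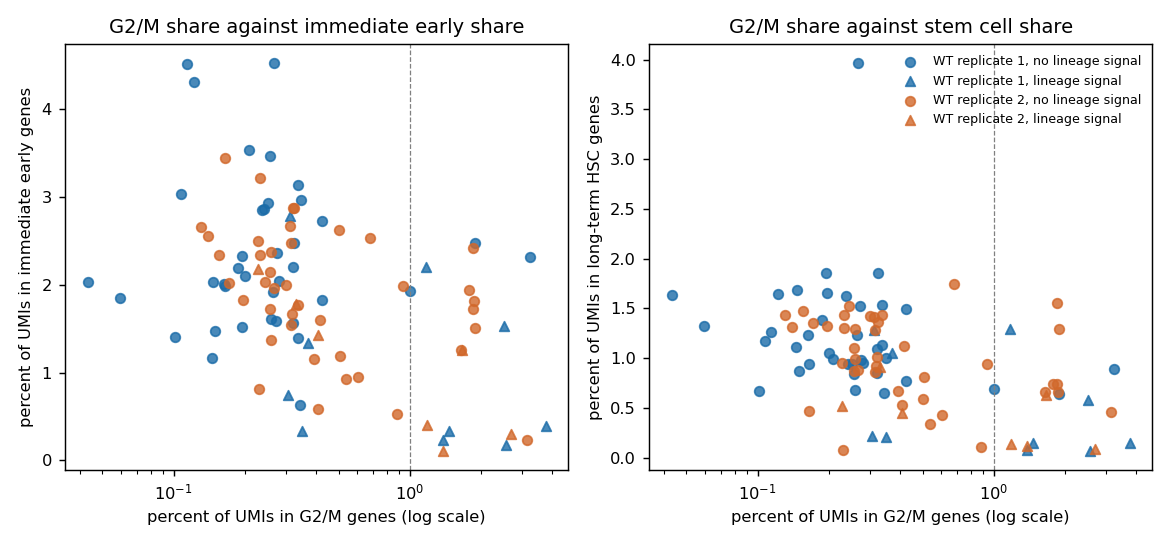
Each point is a cell, with the percent of UMIs in G2/M genes on a log axis against that in immediate early genes (left) and long-term HSC genes (right); triangles have a lineage signal and the dashed line marks 1%. Of the 9 and 11 cells beyond the line, 6 and 4 are triangles, and the cell with 3.96% in long-term HSC genes, which has 3759 UMIs, lies on the low G2/M side.

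Over thinned cells, 98 of 120 pairs among 16 gene lists had Spearman coefficients of the same sign in both libraries, and 5 pairs reached 0.5 in size in both. Cells of a library share its preparation, and shares of a fixed total constrain each other, so these values carry no p-value. Respiratory chain and mitochondrial ribosomal genes went together at 0.81 over 35 cells and 0.71 over 37, respiratory chain and proteasome at 0.70 and 0.60, cytosolic ribosomal and translation factor genes at 0.65 and 0.50, and G2/M and S phase genes at 0.52 and 0.77. Nuclear long noncoding RNAs and G2/M genes went opposite ways, at -0.62 and -0.59; without lineage-signal cells the values were -0.38 and -0.45. Immediate early and long-term HSC genes, which share 2 members, had 0.43 and 0.69, and 0.07 and 0.59 without lineage-signal cells. Leaving those cells out thus took the value of replicate 1 close to 0 and left most of that of replicate 2.

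Single genes were compared over 120 pairs of the 16 variable genes that depended neither on lineage-signal cells nor on a leading cell, and 89 pairs had the same sign in both libraries. Top2a and Tubb5, a beta tubulin, went together at 0.68 in both libraries, and Top2a and Mki67 at 0.73 and 0.65. Among the immediate early genes, Fos and Jun had 0.46 and 0.51, Fos and Dusp1 0.39 and 0.70, and Fosl2 and Nr4a2 0.41 and 0.49. Other immediate early pairs did not go together: Fosl2 and Jun had -0.19 and -0.17, Fosl2 and Dusp1 0.05 and -0.16, and Nr4a2 and Jun 0.09 and -0.03. Fosl2 and Rgs2 had 0.56 and 0.66. Ifitm1 was low where division genes were high, at -0.49 and -0.54 with Top2a and -0.59 and -0.48 with Hmgb2, and Dusp1 and Top2a had -0.38 and -0.44. Without lineage-signal cells Fos and Jun had 0.23 and 0.43, Fos and Dusp1 0.11 and 0.77, Fosl2 and Nr4a2 0.23 and 0.39, and Fosl2 and Jun -0.63 and -0.31. Ifitm1 had -0.27 and -0.52 with Top2a and -0.33 and -0.48 with Hmgb2, and Dusp1 and Top2a had -0.21 and -0.30. Top2a and Mki67 had 0.56 and 0.58, and Top2a and Tubb5 0.48 and 0.57.

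The first principal component of log2(thinned UMIs + 1) gave an axis on which some of these genes had large loadings. It held 8.60% of the variance over 1771 genes in replicate 1 and 10.6% over 1775 genes in replicate 2. Of the 50 genes of largest loading at each end, the libraries shared 20 at the end with high S phase and G2/M share and 12 at the other. The high end was led by Top2a, Mki67, the maintenance methyltransferase Dnmt1, Lig1, the condensin subunit Smc4, 2810417H13Rik, the Polycomb methyltransferase Ezh2 and Ran, a nuclear transport GTPase. The low end was led by Ifitm1, Fos, Dusp1, Hlf, Lmo2, Rgs2, Zfp36 and Jun. In replicate 1 the highest scores, 33.8 to 38.0, belonged to cells 3, 4, 28 and 42, all with a B-lymphoid signal, and cell 37 followed at 17.5. In replicate 2 cells 32, 37, 35 and 14 scored highest, at 24.3 to 30.2, and all but cell 37 carry a lineage signal. The low end was not free of such cells either. In replicate 2 the lowest score, -39.6, was that of cell 2, which has a granulocyte signal. Cells 41 and 45, with no lineage signal, followed at -25.3 and -21.0, and the Jchain-rich cell 17 stood at -19.8. In replicate 1 the lowest scores, -16.5 and -16.0, belonged to cells 26 and 16, with no lineage signal. The score went with G2/M share at 0.67 and 0.77, with long-term HSC share at -0.74 and -0.63 and with depth at 0.19 and 0.43. Without lineage-signal cells the shared genes fell from 32 to 9. The component then held 6.52% and 8.62% of the variance over 27 and 31 cells and went with the G2/M share at 0.20 in replicate 1 and 0.72 in replicate 2. With the S phase share the values were 0.43 and 0.88 (0.59 and 0.87 with all cells), and with the long-term HSC share -0.52 and -0.65.

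Few genes rested on a single cell. Of 2967 and 2994 genes with at least 200 UMIs, 32 (1.08%) and 24 (0.802%) had at least 50% of them in 1 cell, and the median gene had 16.6% and 15.2% in its leading cell. These are shares of unthinned UMIs, in which deep cells weigh more: cell 48 of replicate 1, with 287142 UMIs, and cell 14 of replicate 2, with 223278, are the deepest of their libraries. In replicate 1, cells 10 and 48 each led 11 of the 32. Cell 10 led the granule genes, and cell 48, which has no lineage signal, led mitosis genes such as Ckap2l with 86.5% of its UMIs, Kif4 with 67.4%, the B-type cyclin Ccnb2 with 63.8% and Ube2c with 58.8%. Gal, a neuropeptide gene, had 258 of its 265 UMIs in cell 41. In replicate 2, cell 14 led 7 of the 24, among them Igll1 with 93.7% and Ube2c with 64.9%, and cell 2 led 5, among them Retnlg with 88.3%.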

How the data were processed

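The authors deposited a table of UMI counts per gene and barcode for each library, made from 3′ tags by a modified STRT-seq protocol per the labels. TopHat2 (2.0.12), HTSeq and the build mm10 appear in the submitters' processing notes without a stated role. Each table held 24411 gene symbols and 95 spike-in and marker entries, 92 of them ERCC. The values are whole counts, not normalised. From them, CPM, list shares, CV2, Spearman coefficients and principal components were computed per library with Python 3.11.15, numpy 2.4.6, scipy 1.17.1 and pandas 2.3.3. Cells were thinned to 20000 UMIs without replacement (seed 7). The variation step was tested on simulated data. No test was run, since the 2 wild-type libraries are 1 group and cells are not replicates. Named genes were the 6 markers, the 12 of highest share, the 20 variable genes of largest and the 10 measured genes of lowest excess, up to 3 leading and 3 most variable members of each of 31 lists, and 8 shared genes at each end of the component. Some genes that this rule names are not reported here. Other names (further stem cell genes, genes leading single cells) were chosen after their values were seen, as were the promoter motifs and the removal of entries shared by barcode. The cells, markers and lists were chosen with earlier results of these data known. Spreadsheet software had turned 27 symbols into dates, none among the variable genes. Alternatives covered depth, minimum mean, threshold, window, lineage-signal cells, leading cells, seed and each library alone.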

Additional observations from a re-analysis of the deposited data

How the results depend on the processing

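The number of genes variable in both libraries, 41, was 18 when cells were thinned to 8800 UMIs, 26 with a mean of at least 5, 20 at 3 times the running median, 27 without cells with a lineage signal of 0.25%, and 25 without each gene's leading cell. It was 49 on unthinned CPM, 37 with a window of 300 genes, 29 and 33 without lineage signals of 0.5% and 1%, 48 without entries shared by barcode and 46 with another seed, the last 2 chosen after seeing the data. A library on its own gave 130 to 156, since the minimum mean then had to be met in that library only; over genes that met it in both, the counts were 92 and 117. Of the 41, 35 were called with another seed and 16 at 8800 UMIs. The mean of the library medians of detected genes, 3923.25, was 3287.5 after thinning. On average 4.48 of 6 markers were seen per cell, 4.66 without lineage-signal cells, 3.87 after thinning and 4.44 to 4.52 in a library on its own. The median long-term HSC share, 0.972%, was 0.875% after thinning. The component shared 32 leading genes, 23 at 8800 UMIs and 9 without lineage-signal cells. A filter of at least 2000 genes kept 92 of 96 cells. Thinned results rest on 35 and 37 cells. The causes of these shifts were not tested. No paired analysis was possible because no result comes from a test or from a contrast between genotypes.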

Other observations

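Both wild-type libraries held cells with Xist, the noncoding RNA of the inactive X chromosome, and cells with transcripts of the Y chromosome. Before thinning, 13 and 15 cells had Xist UMIs alone, 15 and 11 had UMIs of Ddx3y, Eif2s3y, Kdm5d or Uty alone, 20 and 21 had both, and 0 and 1 had neither. Xist stood at a median of 584 and 522 CPM in the cells with Xist alone and at 49.8 and 125 in those with both. After thinning, 6 of 35 and 9 of 37 cells had both. The labels give no sex, and Xist was among the 41 variable genes, with excesses of 1.47 and 1.44.

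Meg3, the long noncoding RNA also known as Gtl2 and named in the title of the series, was sparse in wild-type cells. It had a UMI in 19 and 15 of 48 cells, with medians of 0 and highest cells at 577 and 922 CPM. Kcnq1ot1, the noncoding RNA of another imprinted locus, was seen in 47 and 46 cells at medians of 572 and 426. Platelet-lineage genes were also sparse: Pf4, a platelet chemokine, was seen in 17 and 21 cells, Itga2b in 22 and 18, and Vwf in 13 and 13. The megakaryocyte list reached at most 0.174% and 0.215% of a cell's UMIs. Vwf ran up to 442 and 570 CPM.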
